A study of Mus musculus with 16 samples.

Results

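The myosin heavy and light chain isoforms described here are 9 genes of a single-cell study of the mouse left ventricle, chosen by name out of 36950 genes in its table. Myh6 and Myh7 encode the alpha and beta heavy chains of cardiac muscle, Myl2 and Myl3 the ventricular regulatory and essential light chains, and Myl7 and Myl4 the atrial regulatory and essential light chains. Myh11 and Myl9 encode a heavy chain and a regulatory light chain of smooth muscle, and Myh9 encodes the heavy chain of non-muscle myosin IIA. Both cardiac heavy chains, all 4 cardiac light chains and the 3 other genes were present in the table and passed the low-count filter in each cell type that was tested.

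Myosin is the motor of the thick filament. A pair of heavy chains forms the heads that hydrolyse ATP and pull on actin, and each head carries a regulatory and an essential light chain. In mouse ventricles the alpha heavy chain prevails in adults and the beta heavy chain before birth, and a partial return of the beta chain under pressure overload is a textbook feature of cardiac stress. The atrial light chains are largely confined to the atria in the adult heart, and Myh11 is a defining gene of smooth muscle cells.

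The mice, 16 in all and all male, belong to a study of transverse aortic constriction (TAC), a surgical narrowing of the aorta against which the left ventricle must pump. The labels stage them in weeks: 0w (2 mice), 2w (2 mice), 5w (7 mice), 8w (3 mice) and 11w (2 mice). Whether surgery had been done at 0w is not stated in the labels, nor are genotype, strain and age, so 0w is used only as the first stage. Late means 8w and 11w, and early means 0w and 2w.

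The authors' annotation divides 11492 cells into cardiomyocytes (CM, 5656 cells), endothelial cells (EC, 1858), fibroblasts (FB, 1775), macrophages (MP, 1413), T cells (T, 606) and GN (181), an abbreviation the labels do not explain, with 3 cells untyped. Counts of unique molecular identifiers (UMIs, which mark single captured RNA molecules) were summed per mouse and type, and the mouse is the replicate. Levels are counts per 1000000 UMIs of genes that are not mitochondrially encoded (CPM). The total per mouse was 3441317 to 121599183 UMIs, of which mitochondrially encoded genes took 17.3 to 84.9%, and 0 cell barcodes were shared between mice. At least 10 CM were present in 14 mice, 5 of them at 5w. The CM of 5w replicate 1 (54 cells) and 8w replicate 1 (123 cells), which share a plate, stood apart. Their summed cardiomyocyte markers (8 of 8 detected) reached 9830 and 12554 CPM, where the 12 remaining mice had 21734 to 68374 CPM. Their summed fibroblast markers (8 of 8) reached 9294 and 7474 CPM, where the others had 1354 to 3607 CPM, and their mural cell markers (9 of 9) reached 4437 and 2604 CPM, where the others had 157 to 1172 CPM. Some results below are given with and without both mice, and the rest use all mice. The GN cells had summed granulocyte markers of 5499.6 to 60622 CPM, and the other types at most 1219 CPM. Summed T cell markers ran from 38.6 to 7429.6 CPM in T, so the T label rests on few T cell UMIs in some mice, and from 0.323 to 39.9 CPM in CM. For the remaining plates, stage and plate cannot be told apart.

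The 2 cardiac heavy chain genes lie side by side. In mm10 (GRCm38, GENCODE vM21 annotation), Myh6 covers chr14:54941921-54966927 and Myh7 chr14:54970684-54994626, both on the minus strand, 3756 bases apart. Mir208a lies within Myh6 and Mir208b within Myh7, and Myh7 is overlapped on the other strand by 4 annotated genes including Mhrt. Of the 50-base stretches in annotated Myh6 transcripts, 20.2% also occur in Myh7 transcripts, so some reads may not tell the pair apart, and the way such reads and the strand were handled is not given in the sources used here. Of the other members, Myl2 lies at chr5:122100951-122113472 and Myl3 at chr9:110741861-110769798. Myl4 lies at chr11:104550663-104595753 and Myl7 at chr11:5896637-5898782. Myh9 lies at chr15:77760587-77842175, Myh11 at chr16:14194535-14291372 and Myl9 at chr2:156775420-156781658. Among these 7, at most 0.680% of a gene's 50-base stretches (Myh9) also occurred in transcripts of another gene.

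The sequences before 3 of the starts are shown because the results turn on the shares of Myh7 against Myh6 and of Myl7 against Myl2. Each is the 250 bases before an annotated start from RefSeq (GRCm38.p6), printed 5′ to 3′ on the gene's own strand, with matches to the M-CAT motif in capitals. M-CAT, a motif bound by TEAD factors in muscle genes, was searched as CATTCC and, for the other strand, GGAATG. The windows are chr14:54966608-54966857 for Myh6, chr14:54994627-54994876 for Myh7 (the upstream one of its 2 annotated starts) and chr11:5898783-5899032 for Myl7, all on the minus strand.
Myh6: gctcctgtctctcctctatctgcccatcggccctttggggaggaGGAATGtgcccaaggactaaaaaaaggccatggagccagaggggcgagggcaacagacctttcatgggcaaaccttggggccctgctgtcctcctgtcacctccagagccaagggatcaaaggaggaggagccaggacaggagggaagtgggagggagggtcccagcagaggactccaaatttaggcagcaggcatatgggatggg
Myh7: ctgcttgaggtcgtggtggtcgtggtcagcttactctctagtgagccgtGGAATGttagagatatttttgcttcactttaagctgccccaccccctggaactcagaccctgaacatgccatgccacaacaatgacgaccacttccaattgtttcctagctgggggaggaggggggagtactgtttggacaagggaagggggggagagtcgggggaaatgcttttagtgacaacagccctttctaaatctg
Myl7: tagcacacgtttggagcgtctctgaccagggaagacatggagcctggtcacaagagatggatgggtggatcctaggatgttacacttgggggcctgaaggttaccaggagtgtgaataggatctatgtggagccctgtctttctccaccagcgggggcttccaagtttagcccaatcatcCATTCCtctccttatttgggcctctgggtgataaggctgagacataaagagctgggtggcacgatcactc
Each of these windows held 1 match, which began 206 bases before the start in Myh6, 201 in Myh7 and 70 in Myl7. The motif was present in 12.6% of 32851 windows of this length before annotated starts. The window of the other annotated Myh7 start and both windows of Myl2 held 0 matches. The Myl2 windows are chr5:122092474-122092723 and chr5:122092939-122093188, upstream of the GENCODE position of Myl2 given above. The bases right before the GENCODE start of Myl2 were not searched. Entries were found for 8 of the 9 members, all but Myh11, and the Myl3 window held 2 matches and the Myl4 window 0. TATAAA, searched on both strands, was present in 12.4% of all windows and, among the members, in the Myh9 window and 1 of these 2 Myl2 windows.

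In cardiomyocytes the beta heavy chain took a larger share of the cardiac heavy chain UMIs at the late stages. The Myh7 share is Myh7 UMIs as a percentage of Myh6 and Myh7 UMIs together, and it does not depend on how libraries are scaled. It was 4.81% and 4.75% in the 0w mice and 5.37% and 5.39% in the 2w mice. At 5w it was 11.7, 20.8, 13.7 and 15.9% in replicates 4 to 7 and 5.22% in replicate 1. At 8w it was 5.08% in replicate 1, 13.7% in replicate 2 and 35.3% in replicate 3, and at 11w 27.1% and 42.9%. The 4 mice of the first stages lay within 1 percentage point of each other, the 4 other mice at 5w and the 4 other late mice all lay above them, and both mice of the shared plate lay among the early values. The late mice averaged 24.8% ± 15.4 (SD, n = 5) and the early mice 5.08% ± 0.345 (SD, n = 4), a difference of 19.7 percentage points (exact two-sided permutation test, p = 0.0476, and 0.132 adjusted over the 5 shares tested). Without the mice of the shared plate the late mean was 29.7% ± 12.5 (SD, n = 4), and the difference of 24.7 points had p = 0.0286, the smallest that the exact test allows for 4 against 4, and an adjusted p of 0.0476. The share of mitochondrially encoded UMIs, a sign of RNA quality, moved with the Myh7 share. Over all cells of a mouse it was 69.1 to 75.9% in 8w replicate 3 and the 11w mice, 67.03 to 84.9% in 5w replicates 4 to 7 and 59.5% in 8w replicate 2, against 39.5 to 53.6% in the early mice, and it was 17.8 and 44.4% in the mice of the shared plate. It was not read in CM alone, and the mix of cell types differed too. CM were 561 of 604 cells in 5w replicate 4 and 54 of 673 in 5w replicate 1. They were 175 of 849 in 11w replicate 1 and 551 of 1269 in 0w replicate 1. The CM of 5w replicates 4 to 7 and 97.1 and 99.1% of those of the 11w mice were on the 3 of 12 plates whose UMI totals differ from those in the authors' annotation. The part of the mitochondrial share, the mix of types or these plates in the result was not tested.

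**Figure D1:**
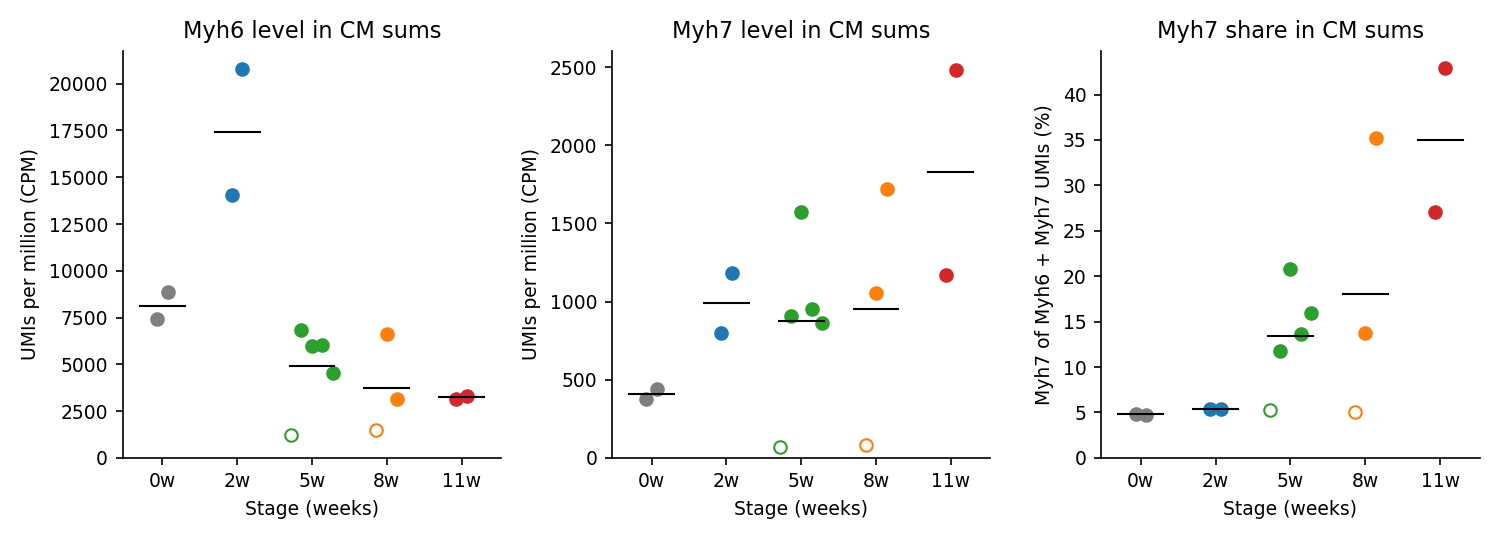
Myh6 level, Myh7 level (both in CPM) and Myh7 share (percent) in the summed CM of 14 mice by stage in weeks, with 1 point per mouse and a line at the stage mean. Open points are the 2 mice of the shared plate, which have the lowest Myh6 and Myh7 levels, and the Myh7 share of the other mice lies near 5% at 0w and 2w and between 13.7% and 42.9% at 8w and 11w.

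Of the levels themselves, Myh6 was lower in each late mouse than in each early mouse. With all mice Myh7 overlapped under both scalings, and with the shared plate set aside it overlapped under 1 of them. Myh6 measured 1476, 6626 and 3156 CPM in the 8w mice and 3150.3 and 3304 CPM in the 11w mice, against 7418 and 8861 CPM in the 0w mice and 14026 and 20785 CPM in the 2w mice, so the late and early mice did not overlap. Myh7 measured 79.0, 1056 and 1719 CPM in the 8w mice and 1169 and 2484 CPM in the 11w mice, against 375 and 442 CPM in the 0w mice and 796 and 1184 CPM in the 2w mice, which do overlap. Scaled with TMM on all UMIs, Myh7 measured 16.4, 312 and 522 CPM in the 8w mice and 532 and 1018 CPM in the 11w mice, against 99.1, 122, 200.5 and 279 CPM early, so that the 4 late mice off the shared plate lay above the early mice. On that scale the highest late Myh6 level was 1959.7 CPM and the lowest early level 1961 CPM. In 5w replicates 4 to 7 Myh6 measured 6835, 5981, 6023 and 4561 CPM and in replicate 1 1215 CPM, all below the early mice. Myh7 measured 908, 1574, 952 and 863 CPM in 5w replicates 4 to 7 and 66.9 CPM in replicate 1. In a fit of all 14 mice (edgeR's quasi-likelihood test with Benjamini-Hochberg adjustment over 15893 genes), neither passed the threshold of 0.05. The log2 difference of late and early was -1.32 ± 0.53 (SE) for Myh6 (adjusted p = 0.470) and 1.53 ± 0.80 for Myh7 (adjusted p = 0.567), and 0 of the 9 members was called, against 0.00629% of all genes tested (1 gene, while 1489 had an unadjusted p under 0.05 and DESeq2 called 202). Without the mice of the shared plate both passed with edgeR, Myh6 at -1.09 ± 0.22 (adjusted p = 0.0401) and Myh7 at 1.81 ± 0.28 (adjusted p = 0.0110), so 2 of 9 members were called, against 0.823% of the 15429 genes tested. With library totals alone the Myh7 difference was -0.057 and the median of all genes was at -1.45, a shift of -1.39, so Myh7 lay above the median gene under both scalings. Between 5w and early the differences were -1.14 ± 0.53 for Myh6 and 0.62 ± 0.77 for Myh7 (edgeR, adjusted p = 0.540 and 0.852), and without the shared plate -0.88 ± 0.22 and 0.92 ± 0.27 (adjusted p = 0.0691 and 0.125). With library totals alone the 5w difference of Myh7 was -0.46, with the median of all genes at -0.74. The TMM scaling factors of the CM sums ran from 0.260 to 2.70, and summed erythroid markers (5 of 5 detected) ran from 375 to 88449 CPM with the highest values in 11w replicate 2 and 8w replicate 3; their part in these differences was not tested.

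The ventricular light chains had other courses. Myl2 was at 21508, 19414, 25334 and 17762 CPM in 5w replicates 4 to 7 and 2163 CPM in replicate 1, against 9236 and 11249 CPM in the 0w mice and 12583 and 15756 CPM in the 2w mice. Replicates 4 to 7 were thus all above the early mice, and the mouse of the shared plate was below them. At 8w Myl2 was at 4195, 11959.5 and 6723 CPM and at 11w at 3463 and 5068 CPM. Between 5w and early, the log2 difference was 0.65 ± 0.57 with all mice (edgeR, adjusted p = 0.778) and 0.93 ± 0.20 without the shared plate (adjusted p = 0.0339). With all mice 0 of 9 members was called at 5w, against 0% of all genes (1417 had an unadjusted p under 0.05, and DESeq2 called 270). Without the shared plate Myl2 was the only member called by edgeR, against 1.58% of all genes. With all mice and library totals alone its difference was -0.31, with the median of all genes at -0.74. The late difference of Myl2 was -0.64 ± 0.57 and did not pass with or without those mice (adjusted p = 0.762 and 0.264).

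Myl3, the essential light chain, was below the early mice in 4 of the 5 late mice. It was at 2070.15, 6392 and 3335 CPM at 8w and 1682 and 1975 CPM in the 11w mice, against 5129 and 5532 CPM in the 0w mice and 8144 and 10967 CPM in the 2w mice. The exception was 8w replicate 2. The summed cardiomyocyte markers were also below the early mice in those 4 late mice and not in 8w replicate 2. They were at 12554, 41568 and 28912 CPM at 8w and 21734 and 27234 CPM at 11w, against 38644 to 68374 CPM early. The part of this in the levels of Myl3 and Myh6 was not tested. The late difference was -0.97 ± 0.47 (edgeR, adjusted p = 0.543), and -0.76 ± 0.21 without the shared plate (adjusted p = 0.0991). At 5w Myl3 measured 5738, 4008, 5135 and 3519 CPM in replicates 4 to 7 and 1217 CPM in replicate 1. Its difference from early was -0.75 ± 0.47 (edgeR, adjusted p = 0.676), and -0.50 ± 0.20 without the shared plate (adjusted p = 0.273).

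Between 2w and 0w no member passed. All 9 members had a positive log2 difference between 2w and 0w, with a median of 0.94 against 0.05 over all genes tested, of which 52.2% were positive. Myh6 was at 0.94 ± 0.79, Myh7 at 1.12 ± 1.15, Myl3 at 0.69 ± 0.70 and Myl2 at 0.31 ± 0.84. With 2 mice a side, 0 members and 0% of all genes passed with edgeR, where 479 genes had an unadjusted p under 0.05 and DESeq2 called 12. The direction of Myl7 and Myh11 rested on 2w replicate 1, without which their differences were -0.81 and -0.997. The summed cardiomyocyte markers were at 54023 and 68374 CPM in the 2w mice, against 38644 and 43995 CPM in the 0w mice. The part of this in the differences of the members was not tested.

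In single cardiomyocytes too, the 3 highest medians were those of 8w replicate 3 and the 11w mice, and the share spread more widely over cells in these mice than in the early mice. The share was computed in the 5209 of 5656 CM that had at least 10 Myh6 and Myh7 UMIs together. Its median was 4.55% and 4.35% in the 0w mice and 4.69% and 4.76% in the 2w mice. At 5w it was 10.1, 17.9, 11.9 and 10.9% in replicates 4 to 7 and 1.75% in replicate 1. At 8w it was 2.42, 12.5 and 36.8%, and at 11w 25.6 and 35.9%. The middle 50% of cells spanned 11.5 to 58.6% in 11w replicate 2 and 25.0 to 50% in 8w replicate 3, against 3.15 to 6.25% in 0w replicate 1. The SD over cells was 27.2 points in 11w replicate 2, where the counting of its UMIs alone gives 8.97, and 3.06 points in 0w replicate 1, where it gives 2.13. The late median averaged 22.7% ± 15.0 (SD, n = 5) against 4.59% ± 0.183 early (n = 4; exact permutation test, p = 0.0794, adjusted 0.132). Without the shared plate the late average was 27.7%, and the adjusted p was 0.0476 (exact permutation test, n = 4 each).

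**Figure D2:**
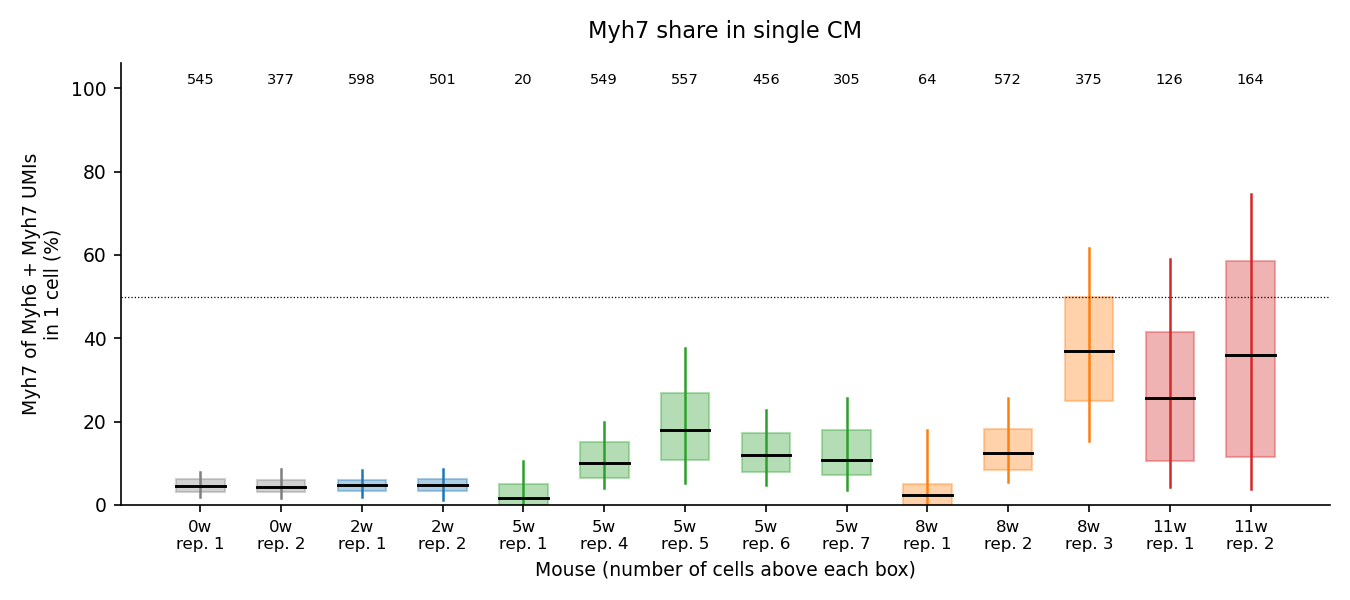
Myh7 share in single CM with at least 10 Myh6 and Myh7 UMIs, by mouse. Boxes span the middle 50% of cells with a line at the median, whiskers run from the 10th to the 90th percentile, the number of cells stands above each box, and the dotted line marks equal UMIs of both genes. The boxes of the 4 early mice end at 6.25% or below, and that of 11w replicate 2 spans 11.5 to 58.6%.

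More Myh7 than Myh6 UMIs were present in 187 of these cells (3.59%). By stage these were 3 of 1099 cells at 2w, 16 of 1887 at 5w, 92 of 1011 at 8w and 76 of 290 at 11w, and none was found among the 922 cells at 0w. They were 32.3% and 18.3% of the cells in the 11w mice and 0, 0.699 and 23.5% in the 8w mice, against 0.334% and 0.200% in the 2w mice and 0% in both 0w mice. The late mean was 14.9% ± 14.2 (SD, n = 5) and the early mean 0.134% ± 0.164 (SD, n = 4; exact permutation test, p = 0.0794, adjusted 0.132). Without the shared plate the late mean was 18.7% (n = 4; adjusted p = 0.0476 in the exact permutation test). Of the 187 cells, 71 were in subcluster CM11 (of 323 cells with enough UMIs) and 38 in CM9 (of 492). Of all CM11 cells, 41.6% came from 11w replicate 2. Over subclusters with at least 10 cells, CM11 had the lowest Myh7 share of summed UMIs within 11w replicate 1 (24.04%) and 11w replicate 2 (33.0%). In 8w replicate 3 it had 35.6%, and CM5 was lowest at 29.8%. Whether these counts reflect the subcluster or the mouse was not tested.

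Other stress and contraction genes in these cells are given within single mice, as a description with no test, since 88 of the 92 cells at 8w were from 8w replicate 3. In that mouse the median level of Atp2a2, which pumps calcium back into the sarcoplasmic reticulum, was 913 CPM in the 88 cells with more Myh7 than Myh6 and 1003 CPM in the 287 others. It was 205 CPM in 23 such cells and 435 CPM in 103 others of 11w replicate 1, and 160.4 CPM in 53 and 319 CPM in 111 others of 11w replicate 2. The level in the cells with more Myh7 was thus lower in the 3 mice that had at least 10 of them. In the 16 such cells at 5w, from 3 mice, it was 6345 CPM, against 3863 CPM in the 1871 others at that stage. Nppa, a natriuretic peptide gene of the fetal program, was at 294 against 326 CPM in 8w replicate 3, 76.7 against 30.3 CPM in 11w replicate 1 and 320.03 against 299.6 CPM in 11w replicate 2. Acta1, skeletal alpha actin, was at 1549 against 1568 CPM, 371 against 142 CPM and 92.3 against 200.5 CPM in the same order of mice, and Ankrd1, a stress-induced ankyrin repeat gene, at 3834 against 4269.7 CPM, 5250.3 against 5004 CPM and 4911 against 4982 CPM. Neither these 3 genes nor Actc1, cardiac alpha actin (2096 against 2467 CPM, 605 against 533 CPM and 600.05 against 968 CPM), had 1 direction in all 3 mice. Nppb, the other natriuretic peptide gene, was at 1321 against 2014 CPM, 84.5 against 136 CPM and 426 against 271 CPM. Tnnt2, cardiac troponin T, was at 7098 against 8959 CPM, 4076 against 4440.4 CPM and 4087 against 4475 CPM.

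The share varied over the annotated CM subclusters and over the mice. Pooled over mice, the share ran from 5.07% in CM1, 49.4% of whose cells came from 0w replicate 1, to 15.5% in CM9. Within a mouse and over subclusters with at least 10 cells, it ran from 33.0% (CM11) to 49.6% (CM2) in 11w replicate 2 and from 29.8% (CM5) to 42.7% (CM8) in 8w replicate 3. In 5w replicate 4 it ran from 11.0% (CM6) to 14.5% (CM9), and in 0w replicate 2 from 3.96% (CM2) to 5.22% (CM4). In 8w replicate 2 it ran from 9.92% to 15.3% and in 8w replicate 1 from 3.24% to 7.46%, which overlap the ranges at 5w and 0w. Where a mouse had CM on a second plate, the share there was 13.5% in 14 cells against 4.73% in 537 cells of 0w replicate 1. It was 8.25% against 5.23% in 2w replicate 1 and 7.79% against 5.36% in 2w replicate 2. It was 3.46% (5 cells) against 13.8% in 8w replicate 2, 26.3% (25 cells) against 35.3% in 8w replicate 3 and 2.29% (8 cells) against 4.76% in 0w replicate 2. In 11w replicate 2 it was 12.8% (2 cells, 47 UMIs) against 42.98%. Of these 7 mice, 3 had the higher share on the plate with fewer cells. Left out of them is 11w replicate 1, whose second plate had 5 cells with 2 UMIs (0% against 27.1%).

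The Myh7 share was also read in cells annotated as other types, and it lay near that of the cardiomyocytes of the same mouse in most mice. In the other annotated cells the share was 27.4% and 31.4% in the 11w mice, against 27.1% and 42.9% in their CM. It was 6.15, 15.3 and 37.0% in the 8w mice, against 5.08, 13.7 and 35.3% in their CM. In the early mice it was 5.23 to 6.68%. The difference between the other cells and the CM lay within 2 points in 11 of 14 mice, with a median of 0.468 and extremes of 2.504 and -11.5, the last in 11w replicate 2. By type, the median of the late mice was 26.96% in EC, 29.4% in FB, 29.3% in MP and 18.3% in T, against early medians of 6.54, 5.55, 5.27 and 5.03%. The late mice ranged from 5.76 to 30.6% in EC, 8.40 to 37.1% in FB and 4.82 to 46.4% in MP (5 mice each). In T the range was 4.51 to 68.6% (4 mice). Myh6 in the other cells was at 12.1 to 79.0% of its CM level, depending on the mouse. Myh6 had a UMI in 98.0% of CM, at a median of 12469 UMIs per cell, and in 58.9% (FB, 18335 UMIs) to 72.1% (T, 14766 UMIs) of the cells of the other tested types. The part that free RNA or mixed cells have in these counts was not tested.

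**Figure D3:**
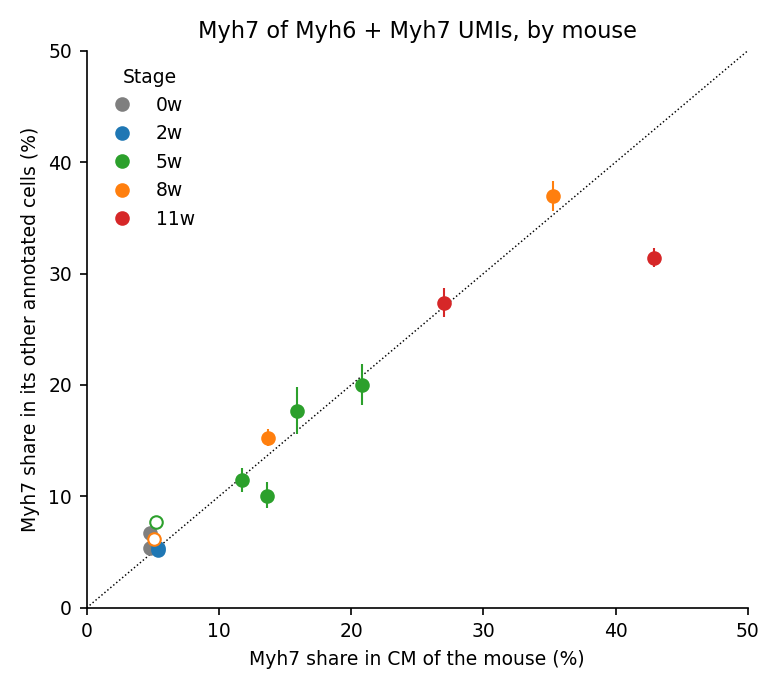
Myh7 share in the other annotated cells of a mouse (vertical, with 95% exact binomial intervals) against the share in its CM (horizontal), both in percent, with 1 point per mouse and the line of equal values. Open points are the mice of the shared plate. 11 of 14 mice lie within 2 points of the line, and 11w replicate 2 lies 11.5 points under it.

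The other mice at 5w, replicates 2 and 3, had 0 annotated CM. Their cells held few cardiac myosin UMIs. The Myh7 share was 29.9% (95% exact interval 24.6 to 35.5%, 288 UMIs) in 5w replicate 2 and 10.5% (7.96 to 13.4%, 516 UMIs) in 5w replicate 3.

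In the other types, with all mice, the cardiac members that passed were Myh6 and Myl7 in T cells at 5w, both lower than in the early mice. Myh6 in T measured 318, 62.3 and 277 CPM in 3 mice at 5w, against 1403, 2771, 4844 and 4745 CPM in the early mice, with no overlap. The log2 difference was -4.23 ± 0.66 (edgeR, adjusted p = 0.00506). Myl7 in T measured 0.870, 0 and 2.07 CPM in those mice, against 18.6, 14.7, 1379 and 17.1 CPM early (-7.15 ± 1.52, adjusted p = 0.0396, and 0.0706 without the shared plate). These were 2 of 9 members, against 0.215% of all genes tested in T (26 of 12109, all lower), among them also Ttn, the giant sarcomere protein titin, at -4.33. The 3 mice with enough T at 5w were those with 54, 0 and 0 CM, and summed cardiomyocyte markers (8 of 8 detected) in T ran from 394 to 18266 CPM over mice. Their part in the result was not tested. Without the shared plate Myh6 also passed in T at the late stages (-2.92, adjusted p = 0.0173, against 0.261% of all genes), in a fit where the median of all genes was itself at -2.46, and in FB at 5w (-3.38, adjusted p = 0.0417, against 0.17%). In these 2 fits edgeR made no other call on a member in EC, FB, MP or T. With sums of at least 30 cells it called 85 genes in MP at 5w, among them 4 of the 9 members. With all MP sums 13752 genes were tested. The MP sums at 5w were then those of replicates 1, 2 and 3 (253, 30 and 33 cells), the mice with 54, 0 and 0 CM. The part of this in those calls was not tested. Without the shared plate the share of all genes called was 0.0737, 0.0295 and 0.00737% in EC (late, 5w and 2w), 0.0477% in FB late, 0.493% in T at 5w and 0.0218% in T at 2w. EC, FB and MP had 0% of all genes called with all mice, where 459 to 1914 genes per contrast had an unadjusted p under 0.05 and DESeq2 called 1 to 439.

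The atrial light chains were low in most cardiomyocyte sums and high in one mouse. Myl7 was at 1327 CPM in 2w replicate 1, against 78.2, 13.2 and 29.7 CPM in the other early mice. Over the late mice it was at 20.2, 1.43 and 174 CPM at 8w and 94.5 and 2.63 CPM at 11w. Myl4 was at 622 CPM in 2w replicate 1, against 28.1, 8.09 and 27.1 CPM in the other early mice, and at 79.0, 3.99 and 115 CPM at 8w and 148 and 2.90 CPM at 11w. The Myl7 share, of Myl2 and Myl7 UMIs together, averaged 1.15% ± 1.33 late (SD, n = 5) and 2.67% ± 4.59 early (SD, n = 4; exact permutation test, p = 0.651, adjusted 0.698). The Myl4 share, of Myl3 and Myl4 UMIs together, averaged 3.06% ± 3.29 late (n = 5) and 2.01% ± 3.39 early (n = 4; exact permutation test, p = 0.698). Neither difference exceeded the spread between mice, and the sign of each turned without a single mouse. The Myl7 difference of -1.53 points became 0.764 without 2w replicate 1, and the Myl4 difference of 1.055 points became -0.206 without 11w replicate 1. Without the shared plate the differences were -1.36 points for Myl7 and 0.90 points for Myl4. With all mice or without the shared plate, no call was made on either gene by edgeR in CM in any of the 3 contrasts.

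A few cells held much of this signal. More Myl7 than Myl2 UMIs were present in 23 CM, of which 14 were from 2w replicate 1 and 17 in subcluster CM3. They held 36.3% of all Myl7 UMIs and 35.3% of all Myl4 UMIs in CM. Their median levels were 13021 CPM for Myl7 and 6042 CPM for Myl4, against 0 CPM for both in the other 5340 CM with enough UMIs. Myl2, the ventricular counterpart, was at 5262 against 14122 CPM. The cells were chosen by Myl7 and Myl2, so the differences of these 2 genes follow from the choice. Sln, sarcolipin, an atrial regulator of the calcium pump, was at 24694 against 0 CPM, and Mybphl, an atrial myosin binding protein gene, had a UMI in 73.9% against 1.87% of cells. Bmp10, a right atrial growth factor gene, had a UMI in 0% against 0.187%. Without these cells the Myl7 share of 2w replicate 1 was 6.48%, against 9.54% with them, and its Myl4 share 4.75%, against 7.09%. CM3, with 94.3% of its cells from 2w replicate 1, had Myl7 at 2039.7 CPM and Myl4 at 1013 CPM. The non-CM of the same mouse had a Myl7 share of 10.8% and a Myl4 share of 9.44%.

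**Figure D4:**
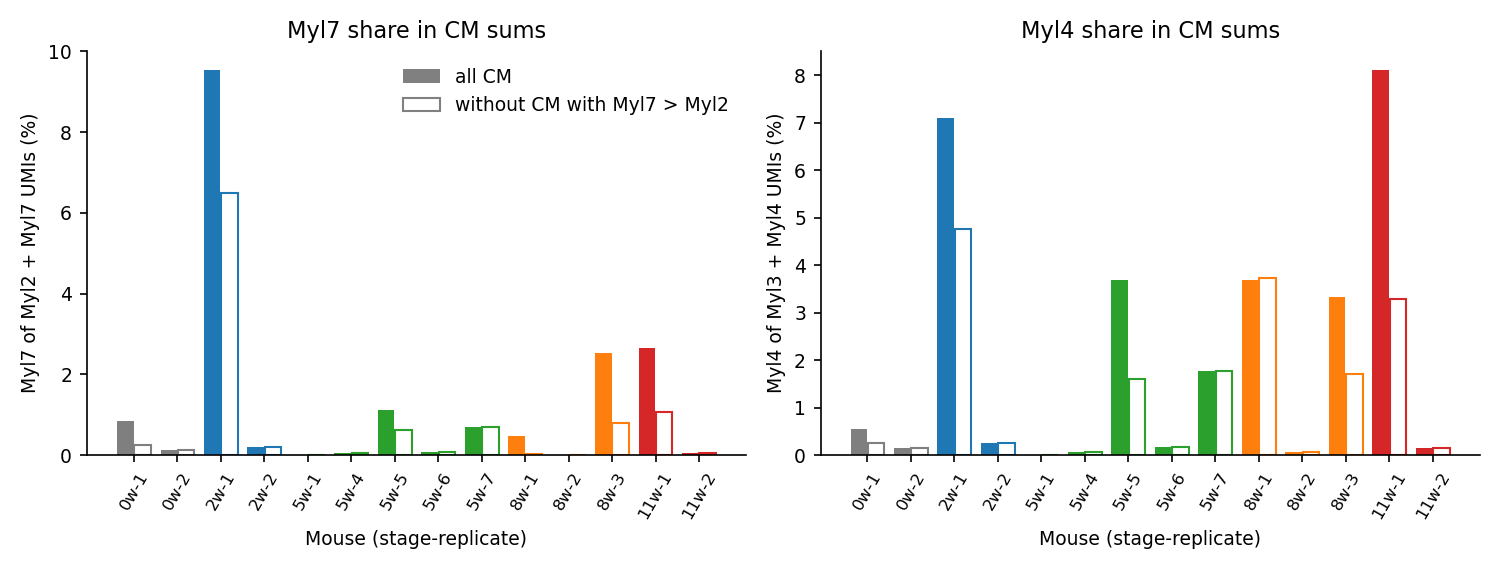
Myl7 share and Myl4 share (percent of UMIs with the ventricular counterpart) in the summed CM of each of 14 mice, in order of stage. Filled bars use all CM and open bars leave out the 23 CM with more Myl7 than Myl2 UMIs. The Myl7 share of 2w replicate 1 is 9.54% with and 6.48% without them, the highest of the 14 mice either way.

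The smooth muscle heavy chain was read mainly in cells annotated as cardiomyocytes, and the annotation has no mural cell type. Myh11 had a median of 10.6 CPM in CM and 4.85 CPM in EC, and medians of at most 1.08 CPM in FB, MP, T and GN. CM held 77.5% of all Myh11 UMIs. In CM sums it measured 233, 8.69 and 102 CPM at 8w and 10.1 and 1.84 CPM at 11w, against 11.1, 0.410, 16.0 and 3.28 CPM in the early mice. The late difference was 2.14 ± 1.01 (edgeR, adjusted p = 0.533), and 1.78 ± 1.02 without the shared plate (adjusted p = 0.399). The highest of the late mice was 8w replicate 1, a mouse of the shared plate with raised mural markers, followed by 8w replicate 3. Of 90 cells of any type with at least 5 Myh11 UMIs, 21 were in subcluster CM7, which held 54.4% of all Myh11 UMIs. Such cells were 3.98% of CM7 (21 of 527), 5.38% of CM8 (5 of 93) and 4.62% of EC7 (3 of 65). The 21 cells had a median of 38264 non-mitochondrial UMIs, against 15889 in the rest of CM7, and a minimum on raw counts favours deep cells. In those 21 cells the median of Acta2, smooth muscle actin, was 860 CPM and that of Rgs5, a pericyte gene, 3486 CPM, against 0 and 470 CPM in the other 506 cells of CM7. Pooled over cells, the mural markers Tagln, Cnn1, Cspg4 and Notch3 were also higher in the 21 cells. Other mural markers were lower when pooled, namely Kcnj8 (64.5 against 153 CPM), Abcc9 (71.3 against 154 CPM) and Pdgfrb (118 against 122 CPM). The median of Myh6 was 3008 against 4031 CPM, so both kinds of myosin were read in the same barcodes. Doublets were not called, and the part of mixed cells was not tested.

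Myl9, the smooth muscle regulatory light chain, was also highest in CM7 among the CM subclusters. It was at 94.8 CPM there, at 64.0 CPM in CM3 and 57.1 CPM in CM8, and at 6.86 to 23.4 CPM in the 8 other CM subclusters. Over mice its CM level was 122, 13.5 and 71.03 CPM at 8w and 2.73 and 6.05 CPM at 11w, against 11.0, 6.96, 51.5 and 16.6 CPM early. The groups overlapped, and the late difference was 0.32 ± 0.68 (edgeR, adjusted p = 0.920). Without the shared plate it was 0.13 ± 0.56 (adjusted p = 0.935). CM8 had the highest summed mural markers, 8057 CPM against 2277 CPM in CM7 and 242 to 693 CPM in the other CM subclusters.

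Myh9, the non-muscle heavy chain, had its lowest median in cardiomyocytes. The medians over mice were 169 CPM in EC, 146 in GN, 127 in T, 115 in MP, 76.1 in FB and 57.9 in CM. The ranges of neighbouring types overlapped, from 56.1 to 305 CPM in EC and from 26.2 to 237 CPM in CM, so the order is a description. Each cell thinned to 2000 UMIs, Myh9 had a UMI in 20% of GN, 14.3% of EC, 13.2% of T, 13.1% of MP, 10.5% of FB and 6.60% of CM, and in 22.6% (CM) to 40.8% (MP) before thinning. By subcluster, EC8 (425 CPM), MP9 (370) and MP6 (286) had the highest levels. The late log2 difference of Myh9 was 0.86 ± 0.41 in CM, 1.02 ± 0.62 in EC, 0.75 ± 0.44 in FB, 0.59 ± 0.67 in MP and 0.30 ± 0.86 in T. No one of these passed with edgeR (adjusted p of 0.536 or more). Without the shared plate the difference was 0.56 in CM, 1.08 in EC, 0.87 in FB and 0.34 in MP, and none passed. In T it was then -0.72, where the median of all genes was at -2.46. With all mice and library totals alone it was -0.42 in CM, where the median of all genes was at -1.45.

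**Figure D5:**
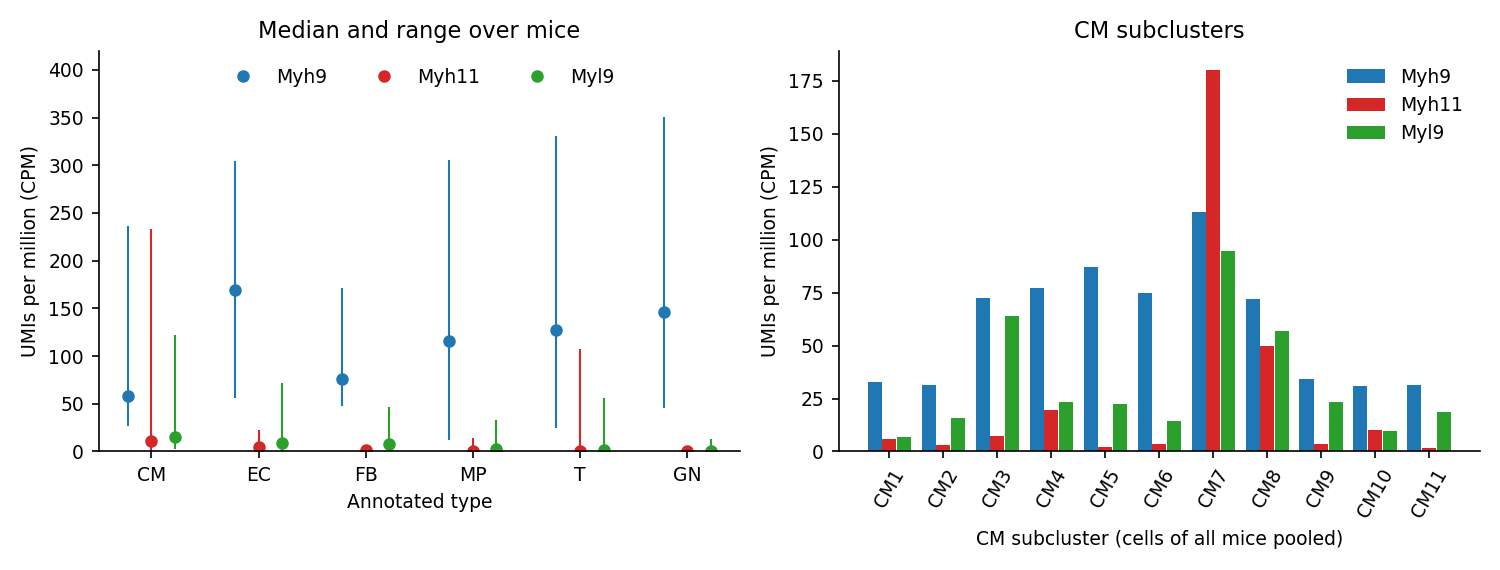
Left, level of Myh9, Myh11 and Myl9 (CPM) by annotated type, with points at the median over mice and lines from the lowest to the highest mouse. Right, level (CPM) in the 11 CM subclusters with cells of all mice pooled. Myh9 has its lowest median, 57.9 CPM, in CM, and CM7 has the highest bars of all 3 genes, with Myh11 at 180.2 CPM.

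Other myosin and thick filament genes gave few calls in CM. The lists held 10 other heavy chain genes, 7 other light chain genes and 15 genes of the thick filament, the M-band and its assembly. With all mice 0 of the 9, 7 and 14 tested passed in any of the 3 contrasts. At the late stages the median log2 difference was -0.20, -0.59 and -0.39, against -0.06 over all genes, and at 5w it was 0.16, -0.01 and -0.49, against -0.01 over all genes. Without the shared plate, 1 light chain fell and 1 phosphatase gene rose at 5w, Myl1, a skeletal essential light chain (-2.10 ± 0.42, adjusted p = 0.0300), and Ppp1r12a, the myosin phosphatase targeting subunit (1.11 ± 0.23, adjusted p = 0.0321). Myh10, the heavy chain of non-muscle myosin IIB, had a late difference of 1.23 ± 0.46 and 1.42 ± 0.31 without the shared plate (adjusted p = 0.433 and 0.0536), and -0.30 with library totals alone, where the median of all genes was at -1.45. Smyd1, a myosin chaperone and methyltransferase, was at -0.83 ± 0.32 and Myl10 at -2.37 ± 1.23, neither past the threshold. At 5w Mylk, smooth muscle light chain kinase, was at 1.56 ± 0.70 and Myh8, the perinatal heavy chain, at -1.81 ± 0.86, also not past it. At 2w, 12 of 14 thick filament genes had a positive difference from 0w, with a median of 0.70 against 0.05 over all genes, of which 52.2% were positive. Mybpc3, cardiac myosin binding protein C, was at 1.68 ± 0.84 there, Myl6 at 1.11 ± 0.67, Myh7b at 1.81 ± 1.17 and Mybphl at 4.20 ± 2.66. Without 2w replicate 1 the difference of Mybphl was -0.84.

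Genes most like the members were found by rank over the 14 CM mice or by correlation over 47 annotated subclusters of at least 20 cells. Myh7 was most like 4930425F17Rik and Lman1l (Spearman rank correlation 0.915 for both, at medians of 0.201 and 0.707 CPM, near 0), Nppa (0.908), Xirp2, an intercalated disc protein gene (0.903), and Pde1c (0.895). The points share library scaling, and without the shared plate it was 0.839 to 0.867 over 12 mice. Myl7 was most like Myl4 (0.956), Ifltd1 (0.939) and Rpp25 (0.936), with medians of 0.0933 and 0.0976 CPM, Sln (0.865) and Top3b (0.864). Over subclusters, Myh11 was most like 2310050B05Rik (Pearson r 0.670), Mblac2 (0.668), 3110057O12Rik (0.664), Pelo (0.657) and Mlf1 (0.657). Myh9 was most like Fau (0.774), Gm9843 (0.761), Tpm3-rs7 (0.730), Arpc4, an actin nucleation subunit (0.729), and Ywhaz (0.719). Subclusters of a type share cells' depth and mice, and these values are descriptions.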

How the data were processed

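The authors deposited UMI counts per gene and cell and an annotation of type and subcluster, both used as deposited. Per the labels' protocols, left ventricles were digested and single cells captured with barcoded oligonucleotides. Per the submitters' processing notes the tools were STAR 2.5.2b, featureCounts and Subread 1.4.6-p1 with mm10, and GRCh37 is also named. For strand, UMI collapsing and annotation the sources name no setting. The members and gene lists were chosen with earlier results of these data known.

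Counts were summed per mouse and type, for sums of at least 10 cells. edgeR 4.0.16 in R 4.3.3 (TMM, filterByExpr, robust quasi-likelihood) fitted all stages of a type, with Benjamini-Hochberg adjustment over all genes tested. DESeq2 1.42.0 was an alternative. Shares were compared by exact two-sided permutation over mice, adjusted over 5 shares, and Clopper-Pearson 95% intervals cover counting error only. The labels name each mouse as a separate sample. The fits were tested on simulated data. All 9 members were named, and of the other myosin and thick filament genes those past the threshold in a contrast or, with none, up to 4 with the smallest p in CM. Replicate numbers did not pair mice (16 same-numbered pairs, r from -0.017 to 0.206, 1 over 0.1). Doublets were not called, and mitochondrially encoded genes (34, 56.0% of UMIs) were left out of CPM totals but not of the fits. A further gene list is not reported here.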

Additional observations from a re-analysis of the deposited data

Results flagged for a closer look

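Of 52 groups of 4 to 10 mice that were examined, 7 held a mouse far from the others, where chance gives about 1 in 20. Among the early mice, 2w replicate 1 had Myl7 at 1327 CPM in CM, against 13.2 to 78.2 CPM in the other 3, and Myl4 at 622 CPM, against 8.09 to 28.1 CPM. Its Myl7 share was 9.54%, against 0.117 to 0.839%, and its Myl4 share 7.09%, against 0.146 to 0.545%. The atrial markers Sln, Mybphl, Bmp10 and Nppa summed to 1909.7 CPM in its CM and to 0 to 947 CPM in those of the other 13 mice.

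Both mice of the shared plate also stood apart in the non-muscle and smooth muscle members. Myh9 was at 237 CPM in the CM of 8w replicate 1, against 26.5 to 79.1 CPM in the other late mice, and at 137 CPM in 5w replicate 1, against 54.2 to 68.7 CPM in the others at 5w. Myl9 was at 96.0 CPM in 5w replicate 1, against 10.3 to 22.5 CPM. The raised fibroblast and mural markers of these CM are given in the description of the samples, and their part was not tested.

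The cells of 5w replicates 2 and 3, which had 0 CM, entered no comparison of shares. In 5w replicate 2 the Myh7 share was 29.9%, against 5.23 to 6.68% in the cells other than CM of the early mice. Its Myl7 share was 26.8% (95% exact interval 23.2 to 30.7%, 574 UMIs), against 0.738 to 10.8%. Its Myl4 share was 10.0% (95% exact interval 4.42 to 18.8%, 80 UMIs), against 0.281 to 9.44%. The Myl4 interval covers the highest early value, so this share is not set apart from the early mice. In 5w replicate 3 the Myh7 share was 10.5%. These differences were not tested.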

How the results depend on the processing

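Counts of genes called are given in the order late versus early, 5w versus early and 2w versus 0w. DESeq2 called 202, 270 and 12 genes in CM, 94, 193 and 93 in EC, 257, 380 and 439 in FB, 5, 38 and 1 in MP and 152, 227 and 76 in T. With no filter on low counts the counts were 175, 314 and 7 in CM (1, 1 and 2 members), 68, 151 and 2 in EC, 88, 155 and 38 in FB and 14, 75 and 5 in T. More genes were then tested in CM than the 15893 of the filtered fit. Without 5w replicate 1 and 8w replicate 1 the share differences were 24.7, 23.1 and 18.6 points for Myh7 in sums, its median over cells and cells with more Myh7 than Myh6. The counts were then 127 and 244 in CM (2 and 1 members), 10, 4 and 1 in EC, 7 and 25 in FB and 36, 68 and 3 in T, and Myh9 in T was at -0.72. DESeq2 on those mice called 955, 878 and 145 in CM (2 members late and 2 at 5w), 263, 417 and 185 in EC, 398, 780 and 498 in FB, 8, 96 and 1 in MP and 214, 341 and 147 in T, with Myh9 in T at -0.14. In CM 15429 genes had passed the low-count filter.

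With no scaling factors, where the median of all genes was at -1.45 (late) and -0.74 (5w) in CM, 1626 of 15893 genes and 3 of 9 members were called in late CM and 5 genes in late T. The late differences in CM were then -0.057 for Myh7, -1.19 for Myl4, -0.42 for Myh9, -0.94 for Myl9, -0.55 for Rock2 and -0.30 for Myh10, and at 5w -0.46 for Myh7 and -0.31 for Myl2. RLE factors gave 0 genes in late CM and 10 in T at 5w, and a minimum of 30 cells gave 85 in MP at 5w (4 members, where the main MP fit tested 13752 genes). Without CM of 5 or more Myh11 UMIs, a filter on Myh11 itself, Myl9 was at -0.49 (late) and Myh11 at -0.35 (2w versus 0w). As a mean of per-cell shares the Myl4 share difference was -0.0324.

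The replicate block gave 2 genes in late CM and 374 at 5w (2 members, Myl4 and Myl7), 1 in EC at 2w, 82 in MP at 5w (4 members, Myh6, Myh7, Myl2 and Myl3) and 14 (3 members, Myh6, Myl4 and Myl7), 51 and 10 in T. These fits tested 15893 genes in CM, 13752 in MP and 12109 in T. Under the block Myl4 was at -0.88 in late CM and Myh9 at -0.0083 in late T, and at 5w Myh7 was at -2.95, Myl2 at -2.42, Ppp1r12a at -0.54 and Mylk at -0.53. Numbers 4 to 7 occur at 5w alone, so that 5w contrast rests on 5w replicate 1.

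With each mouse left out in turn, the Myh7 share difference ranged from 15.2 to 24.7 points, the per-cell median from 14.5 to 23.1, cells with more Myh7 than Myh6 from 10.5 to 18.6, the Myl7 share from -2.38 to 0.764 and the Myl4 share from -0.206 to 2.75. Calls ranged from 0 to 30 (late) and 0 to 56 (5w) in CM, 0 to 2 (late) and 0 to 1 (2w) in EC, 0 to 5 (late) and 0 to 21 (5w) in FB and 0 to 25, 11 to 61 and 0 to 2 in T. Late CM values ranged from -2.17 to 2.09 for Myl4, -3.37 to 1.11 for Myl7 and -0.036 to 0.83 for Myl9. At 5w they ranged from -1.82 to 1.28 for Myl4 and -2.04 to 1.22 for Myl7. At 2w versus 0w they ranged from -0.81 to 5.54 for Myl7, -0.997 to 4.35 for Myh11 and -0.84 to 9.89 for Mybphl, and for Myh9 in late T from -0.67 to 0.91. The cause of these changes was not tested.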
